A study of Mus musculus with 2 samples.

Results

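The genes of the phase II conjugation enzymes were examined in lists of methylated DNA regions from the liver of 1 Pemt-/- and 1 Pemt+/+ mouse, both fed high fat-high sucrose (HFHS) chow. Pemt, phosphatidylethanolamine N-methyltransferase, is an enzyme of the liver that makes phosphatidylcholine by adding methyl groups to phosphatidylethanolamine. Pemt-/- mice lacked it in the whole body, and Pemt+/+ mice carried the intact gene. The sample records put both samples at 25 weeks of age after HFHS feeding from 5 weeks of age, whereas the study's methods describe shorter feeding in the passage on enrichment. The methods give male mice. The passage on enrichment gives several mice per genotype and does not say whether a library pooled them. A mouse below therefore means a library. There is 1 library per genotype, so no difference has a replicate check, no test between the genotypes was possible, and genotype, mouse and library cannot be told apart. Methylated regions give no check of the genotype label or of the tissue label.

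Members were chosen by gene symbol alone, without any measured value. They are the UDP-glucuronosyltransferases (UGT, symbols starting Ugt1, Ugt2, Ugt3 or Ugt8 with a further number), the glutathione S-transferases of the cytosolic classes alpha, mu, theta, omega and zeta and of the mitochondrial and peroxisomal class kappa (GST), the microsomal glutathione S-transferases (MGST) and the sulfotransferases (SULT). A region belonged to a gene when the authors' list paired it with a transcript at a distance of up to 10 kb, and it was counted once. This gave 48 regions of 97063 in Pemt-/- and 69 of 131279 in Pemt+/+. Of these totals, 46767 and 63724 regions had any transcript within 10 kb, and these served as the comparison. The regions lay at 39 of 14480 genes with a region in either mouse, 35 in Pemt-/- and 37 in Pemt+/+. Unless stated, counts and rankings below cover only these genes taken by symbol.

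Conjugation is the step of detoxification in which a large polar group is joined to a drug, hormone, bile pigment or reactive lipid so that it can be excreted in bile or urine. UGT enzymes add glucuronic acid, GST and MGST enzymes add glutathione, and SULT enzymes add sulfate. The liver is a main site of all of these reactions. In mammalian DNA the methyl group sits mostly on the cytosine of a CG dinucleotide, and stretches rich in CG at gene starts are usually unmethylated.

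The DNA just upstream of these genes ranged from rich in CG to free of it. RefSeq sequences of the 250 bases before the start (build GRCm38.p6) matched 34 of the 39 genes and gave 42 windows, since some genes have several starts. The windows held a median of 3 CG (interquartile range 1 to 5.75, highest 22), against a median of 6 (2 to 16) in 32851 windows of all genes and 2 in 88 windows of cytochrome P450 genes, the phase I enzymes of the same metabolism. At least 1 CG was found in 83.3% of the windows of conjugation enzyme genes and in 92.1% of all windows. Fewer than 5 CG were found in 71.4% and 44.4%. The motif searched is CG, which reads the same on both strands. The 5 windows printed here span that range and belong to genes described below, with each CG in capitals and each sequence on the strand of its gene.
Gsto2, chr19:47865544-47865793, plus strand, 22 CG: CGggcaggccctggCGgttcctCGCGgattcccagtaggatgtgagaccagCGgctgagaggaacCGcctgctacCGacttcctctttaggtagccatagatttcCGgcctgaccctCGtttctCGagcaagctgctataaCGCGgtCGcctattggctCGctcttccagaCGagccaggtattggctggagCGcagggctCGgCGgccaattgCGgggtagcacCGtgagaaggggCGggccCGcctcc
Mgst3, chr1:167393842-167394091, minus strand, 17 CG: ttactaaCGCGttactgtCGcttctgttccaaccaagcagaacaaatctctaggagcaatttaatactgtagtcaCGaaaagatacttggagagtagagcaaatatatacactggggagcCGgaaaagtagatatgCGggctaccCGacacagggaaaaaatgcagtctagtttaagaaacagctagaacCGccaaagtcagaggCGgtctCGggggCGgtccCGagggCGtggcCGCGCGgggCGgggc
Sult5a1, chr8:123158281-123158530, minus strand, 5 CG: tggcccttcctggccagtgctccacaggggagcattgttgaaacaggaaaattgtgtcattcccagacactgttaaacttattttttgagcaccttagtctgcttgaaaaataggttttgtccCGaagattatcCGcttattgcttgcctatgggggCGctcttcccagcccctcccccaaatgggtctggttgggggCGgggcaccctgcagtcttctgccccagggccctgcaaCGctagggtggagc
Ugt1a1, chr1:88211709-88211958, plus strand, 2 CG: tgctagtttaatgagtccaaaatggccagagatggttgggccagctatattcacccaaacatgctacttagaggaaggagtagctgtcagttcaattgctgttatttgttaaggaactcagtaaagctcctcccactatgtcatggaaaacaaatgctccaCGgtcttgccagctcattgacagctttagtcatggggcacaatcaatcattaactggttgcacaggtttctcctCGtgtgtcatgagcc
Ugt1a10, chr1:88055161-88055410, plus strand, 0 CG: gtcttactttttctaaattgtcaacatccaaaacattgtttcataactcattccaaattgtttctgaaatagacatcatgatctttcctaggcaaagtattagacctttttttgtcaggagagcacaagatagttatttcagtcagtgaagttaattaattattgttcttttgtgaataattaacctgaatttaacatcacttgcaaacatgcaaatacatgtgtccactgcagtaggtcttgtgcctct
These coordinates are of GRCm38 and cannot be set beside those of the regions, which are of mm9. As given below, no listed region overlapped the start of any of the 39 genes.

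The conjugation enzyme genes had fewer listed regions in Pemt-/- than in Pemt+/+, by about the same factor as all genes. A tag is a read that fell in a region. The 48 Pemt-/- regions covered 21.5 kb with 723 tags, and the 69 Pemt+/+ regions covered 31.4 kb with 1321 tags. The median region held 13 tags in Pemt-/- (range 8 to 46) and 16 in Pemt+/+ (range 9 to 59), and the mean fold enrichment over background given by the authors was 19.7 and 19.0. Pemt+/+ thus had 1.44 regions for each Pemt-/- region at these genes, 1.36 over all regions with a transcript and 1.26 at cytochrome P450 genes (158 against 125). The whole Pemt+/+ list is longer and holds more tags, 2847831 against 1582080, and library totals are not given in the sources used here. When the Pemt+/+ list was limited to as many of its highest-scoring regions as the Pemt-/- list has, 49 of its regions lay at conjugation enzyme genes, against 48.

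Most Pemt-/- regions of these genes were also listed in Pemt+/+. Of the 48 regions, 38 (79.2%, 95% Wilson interval 65.7 to 88.3) shared at least 1 bp with a Pemt+/+ region, and 10 shared none. Over all Pemt-/- regions with a transcript the unshared share was 17.8%. Of the 69 Pemt+/+ regions, 40 (58.0%, 46.2 to 68.9) overlapped a Pemt-/- region and 29 did not, and the unshared share over all Pemt+/+ regions with a transcript was 39.6%. The intervals of the conjugation enzyme genes included both background values. Intervals in the text cover counting error only. Unshared regions were the weaker ones, with a median of 11 tags against 15 in shared Pemt-/- regions and 13 against 23.5 in Pemt+/+.

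The regions formed 78 loci, of which 39 were listed in both mice, 10 in Pemt-/- only and 29 in Pemt+/+ only. At UGT genes 10 loci were listed in both, 0 in Pemt-/- only and 8 in Pemt+/+ only. At GST genes the numbers were 17, 8 and 10, so the GST family, with 24 of the 48 Pemt-/- regions, held 8 of the 10 loci found in Pemt-/- alone. Of the 24 regions 66.7% (46.7 to 82.0) had a partner. Over all regions with a transcript this was 82.2% in Pemt-/- and 60.4% in Pemt+/+. At MGST genes they were 3, 0 and 6, and at SULT genes 9, 2 and 5. No difference between families was tested, and with so few loci their Wilson intervals overlap widely, for example 36.3 to 76.9% of 19 UGT regions and 12.1 to 64.6% of 9 MGST regions of Pemt+/+ found in the other mouse.

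Where a region was listed in both mice, the conjugation enzyme genes had the same balance of tags as the genome. Across 38 pairs that overlapped one to one, 573 tags came from Pemt-/- and 866 from Pemt+/+, a Pemt-/- share of 39.8% (37.3 to 42.4), beside 40% over 37739 pairs with a transcript and 40.7% (39.2 to 42.3) over 102 pairs at cytochrome P450 genes. Pemt-/- tags divided by Pemt+/+ tags gave a median ratio of 0.672 (interquartile range 0.527 to 0.814, range 0.243 to 1.44), and that of all 79393 pairs was 0.682 (0.545 to 0.850). Pemt-/- had more tags in 5 pairs, both mice had equal tags in 3, and Pemt+/+ had more in 30. Over all 79393 pairs these numbers were 8261, 3399 and 67733. Pemt-/- thus had more tags in 13.2% of the pairs here and in 10.4% of all pairs. The regions of a pair can differ in width between the mice, and no ratio was scaled by width. A pair was called relatively higher in a mouse when its ratio was more than 2-fold from 0.682 and it held at least 20 tags. Of 34 such pairs, 2 were relatively higher in Pemt-/- and 1 in Pemt+/+, against 2.07% and 2.0% of 76345 pairs over the genome.

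**Figure D1:**
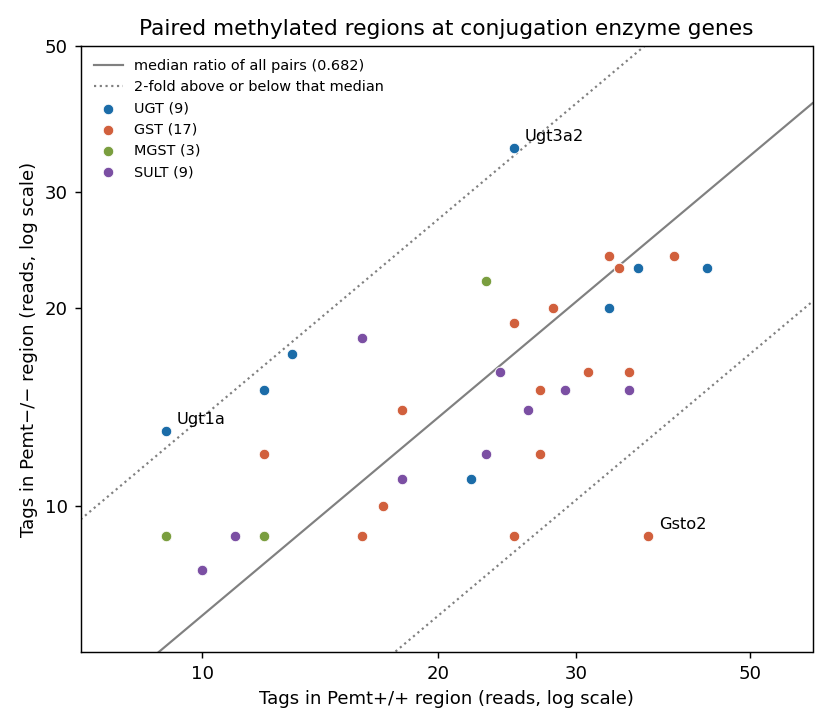
Each point is 1 of the 38 pairs of methylated regions at conjugation enzyme genes that overlapped one to one, with its tags (reads) in Pemt+/+ on the horizontal axis and in Pemt-/- on the vertical axis, both log scales, coloured by family. The locus upstream of Ugt3a2, with 1 region of 46 tags in Pemt-/- and 2 of 81 tags together in Pemt+/+, is not drawn. The solid line is the median ratio of all pairs (0.682) and the dotted lines are 2-fold from it; a region of Ugt3a2 and one of the Ugt1a cluster lie above the upper line and one of Gsto2 lies below the lower line.

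Among genes taken by symbol, the UGT genes held the regions with the most tags. Ugt3a2, of the UGT3 group that uses sugars other than glucuronic acid, had the most tags of the 39 genes taken by symbol, 92 in 3 Pemt-/- regions and 144 in 5 Pemt+/+ regions. Its upstream locus, chr15:9259584-9261001 in Pemt-/-, held 46 tags in 1 region there and 81 tags in 2 regions in Pemt+/+. Inside the transcript, at chr15:9286049-9287018, Pemt-/- had more tags, 35 against 25 in Pemt+/+. The ratio was 1.40, higher than in 98.1% of all pairs, and the Pemt-/- share was 58.3% (45.7 to 69.9). The Pemt-/- region was also the wider one, 970 bp against 709 bp, and the tags were not scaled by width. Another Ugt3a2 pair, further along the transcript, held 11 and 22 tags. The neighbouring gene Ugt3a1 had 1 pair upstream, with 23 and 44 tags.

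The Ugt1a cluster is a set of genes with separate first exons that share their last exons, and among them Ugt1a1 is the enzyme that conjugates bilirubin. Its 8 genes with a region, Ugt1a1, Ugt1a2, Ugt1a5, Ugt1a6a, Ugt1a6b, Ugt1a7c, Ugt1a9 and Ugt1a10, share many of their regions, so they are not 8 separate observations. They are counted as 8 of the 39 genes, and their regions, each counted once, form 9 of the 18 UGT loci. Pemt-/- had 3 regions, with 13, 20 and 23 tags, and Pemt+/+ had 9, with 9, 33, 11, 12, 12, 14, 36, 14 and 16 tags from the 5′ to the 3′ end. All 3 Pemt-/- regions had a Pemt+/+ partner. The first of them, chr1:90010990-90011309, had 13 tags against 9, a ratio of 1.44 with a wide interval on its share of 59.1% (38.7 to 76.7). The partners of the other Pemt-/- regions had 33 and 36 tags.

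The remaining 6 Pemt+/+ regions of the cluster had no partner and held 79 tags in all, 11 to 16 each. Between the neighbouring Pemt-/- regions chr1:90015475-90016067 and chr1:90101550-90102278 lay 85.5 kb with no Pemt-/- region, in which Pemt+/+ had 4 regions with 49 tags. This stretch was picked as the longest in the cluster. It was not set beside the spacing of regions over the genome, so it is not shown to be unusual. Over the genome, 42.3% of Pemt+/+ regions with 16 tags and 66.8% of those with 11 tags had no Pemt-/- partner, so regions of this strength were often unshared. Without the cluster, the conjugation enzyme genes had 45 regions in Pemt-/- and 60 in Pemt+/+, a ratio of 1.33.

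**Figure D2:**
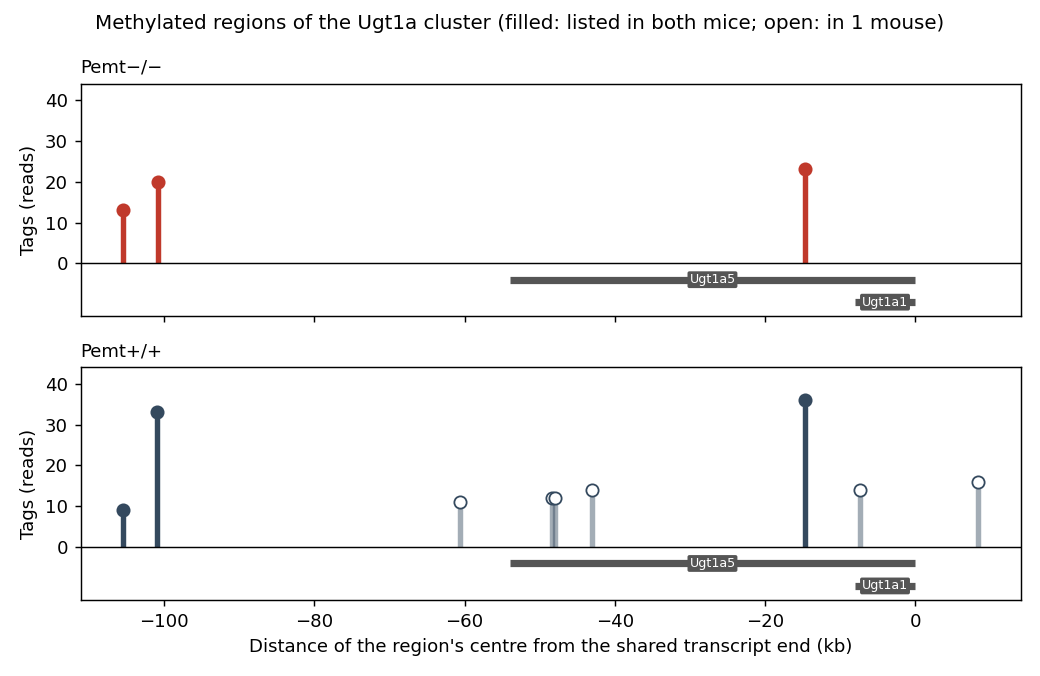
The stems give the tags (reads) of each methylated region against the distance of its centre from the shared transcript end (kb), upper panel Pemt-/- and lower panel Pemt+/+, filled where the region was listed in both mice and open where in 1, and the bars below mark the transcripts of Ugt1a5 and Ugt1a1 only. The 3 filled stems of Pemt-/- recur in Pemt+/+, where 6 open stems of 11 to 16 tags stand between or beyond them.

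The Ugt2 genes, whose products conjugate steroids and bile acids, had few and weak regions. Ugt2b37 had 1 pair with 17 tags in Pemt-/- and 13 in Pemt+/+, and Ugt2b34 had 1 pair with 15 and 12 tags. Ugt2a1 had 1 pair with 8 and 10 tags. A region of 9 tags, 227 bp past the end of Ugt2b1 and 9205 bp upstream of Ugt2b34, was listed in Pemt+/+ only. The 9 UGT pairs that overlapped one to one gave a Pemt-/- share of 44.7% (39.7 to 49.8), beside 40% over all pairs with a transcript. Pemt-/- had more tags in 4 of the 9, against 10.4% of all pairs, and with so few pairs this was not tested. The interval of the Pemt-/- share included 40% at Ugt2b34 (37.3 to 72.4), Ugt2b37 (39.2 to 72.6) and the Ugt1a pair (38.7 to 76.7). At the Ugt3a2 pair it did not (45.7 to 69.9). The locus upstream of Ugt3a2, with 46 and 81 tags, is not among the 9 because 1 region met 2.

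Of the 17 GST pairs, 15 held more tags in Pemt+/+, 2 held equal tags and 0 held more in Pemt-/-. Over the genome Pemt-/- had more tags in 10.4% of all pairs. With only 17 pairs, a count of 0 beside that share was not tested and is not read as a trait of the family. Over 17 pairs, 250 tags came from Pemt-/- and 426 from Pemt+/+, a share of 37.0% (33.4 to 40.7) with a median ratio of 0.60, and 10 of the 17 lay below the median ratio of the genome. The interval included the value of all pairs with a transcript, 40%.

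The omega class genes Gsto1 and Gsto2, whose products reduce dehydroascorbate and arsenic compounds, lie next to each other and had 9 loci, of which 6 were listed in 1 mouse only. Upstream of Gsto1, a pair had 16 and 31 tags (ratio 0.516). Inside Gsto1, a pair had 12 tags in Pemt-/- and 27 in Pemt+/+. Around these, Pemt-/- alone had a region of 13 tags upstream of Gsto1, chr19:47927044-47927567, and one of 12 tags inside it, chr19:47936432-47936920. Pemt+/+ alone had a region of 17 tags upstream of Gsto1 that lay 191 bp from the Pemt-/- region of the pair, regions of 16 and 9 tags inside Gsto2, and one of 9 tags over its end. Over the genome, 14.0% and 17.7% of Pemt-/- regions with 13 and 12 tags were unshared. Of Pemt+/+ regions with 17, 16 and 9 tags, 38.7%, 42.3% and 75.9% were unshared.

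The lowest ratio of all conjugation enzyme pairs stood downstream of Gsto2. The Pemt+/+ region, chr19:47970586-47971286, held 37 tags and began 9791 bp past the end of the transcript, and the Pemt-/- region, chr19:47970850-47971274, held 9. The ratio was 0.243 and the Pemt-/- share 19.6% (10.7 to 33.2), and 0.135% of all pairs had a lower ratio. The Pemt-/- region began 10055 bp past the transcript end, beyond the limit of the lists, so it is not among the 48 regions and its tags are missing from the total of Gsto2, 24 tags in Pemt-/- and 98 in Pemt+/+.

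**Figure D3:**
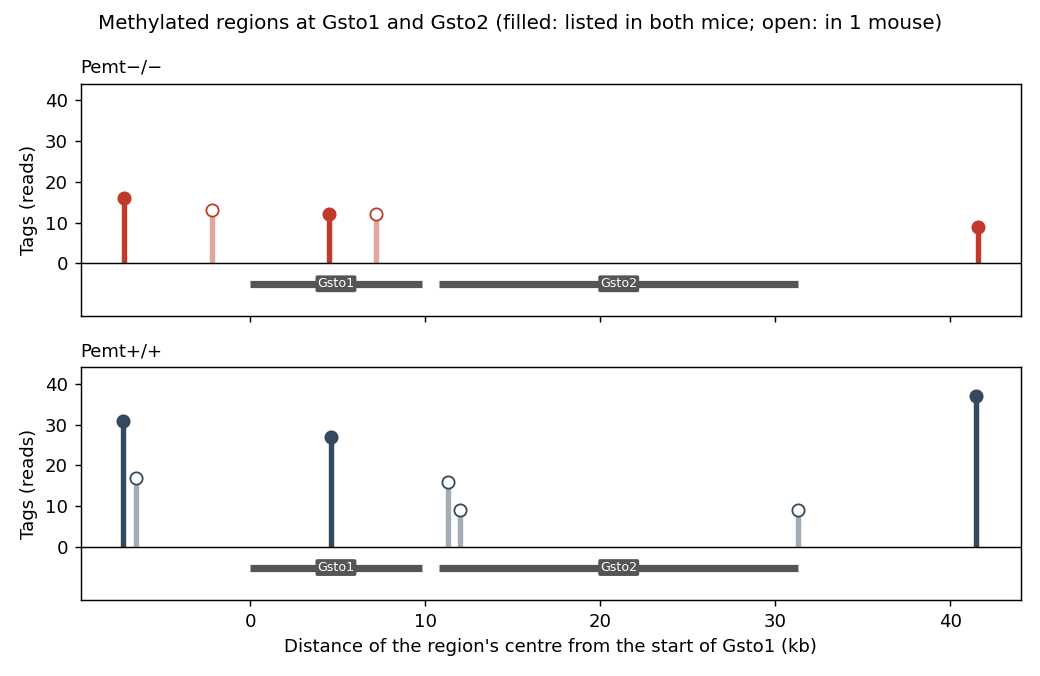
The stems give the tags (reads) of each methylated region around Gsto1 and Gsto2 against the distance of its centre from the start of Gsto1 (kb), upper panel Pemt-/- and lower panel Pemt+/+, filled where listed in both mice and open where in 1, with the transcripts as bars. The filled pair at the right edge had 9 tags (Pemt-/-) against 37 (Pemt+/+), and its Pemt-/- region is drawn although it lies just past the 10 kb limit.

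Gstz1, the maleylacetoacetate isomerase of tyrosine breakdown, was the GST gene listed in both mice that had more tags in Pemt-/-. It had 37 tags in 2 Pemt-/- regions and 25 in 1 Pemt+/+ region, a share of 59.7% (47.3 to 71.0). The pair inside the gene had 19 tags in Pemt-/- and 25 in Pemt+/+ (ratio 0.760). The other region, chr12:88489448-88489775, also inside the gene, had 18 tags in Pemt-/- and no partner, and the nearest Pemt+/+ region was 6294 bp away. It was the strongest unshared Pemt-/- region of the conjugation enzyme genes. Over the genome, 4.82% of Pemt-/- regions with 18 tags had no Pemt+/+ partner.

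The alpha class genes, among them Gsta4, which conjugates the lipid peroxidation product hydroxynonenal, had 11 loci, of which 6 were listed in both mice. Gsta1 had 3 pairs with 43 tags in Pemt-/- and 62 in Pemt+/+, of which the strongest, downstream of the gene, had 24 and 33 (ratio 0.727). Inside Gsta4 a pair had 16 and 35 tags (ratio 0.457), while a Pemt-/- region of 9 tags in the same gene had no partner. Pemt+/+ regions of 9 tags upstream and 14 tags downstream of Gsta4 also had none. Gsta2 had no pair. Its Pemt-/- region, chr9:78201569-78201843, lay 6617 bp upstream with 11 tags, and its Pemt+/+ region, chr9:78176153-78176813, lay downstream with 17 tags. Over the genome, 35.7% and 22.3% of Pemt-/- regions with 9 and 11 tags were unshared. Of Pemt+/+ regions with 9, 14 and 17 tags, 75.9%, 51.4% and 38.7% were unshared.

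The mu class genes form 1 cluster on chromosome 3, and their enzymes also take reactive epoxides. The pair at the end of Gstm5 had 23 and 34 tags, that downstream of Gstm7 had 20 and 28 (ratio 0.714), and that downstream of Gstm3 had 24 and 40. A pair inside Gstm7 and downstream of Gstm6 had 14 and 18 tags. Pemt+/+ had more tags in all 4 of these pairs, as in 67733 of all 79393 pairs. Downstream of Gstm2 a pair had 9 tags in Pemt-/- and 25 in Pemt+/+ (ratio 0.360), and 2.76% of all pairs had a lower ratio. Pemt+/+ alone had a region of 16 tags upstream of Gstm2 and one of 15 tags downstream of Gstm6 and upstream of Gstm7. Pemt-/- alone had a region of 11 tags downstream of Gstm7 and one of 9 tags downstream of Gstm5.

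Of the other GST genes, Gstt1 of the theta class had 1 pair with 15 and 27 tags, Gstt2 had 1 pair with 12 in each mouse, and Gsta3 had 1 pair with 9 in each. Gstk1, the kappa class enzyme, was listed in Pemt+/+ only, with 10 tags, and Gstt3 in Pemt-/- only, with 9. These single weak regions lie near the smallest tag numbers in the lists, 8 in Pemt-/- and 9 in Pemt+/+.

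The MGST genes had 3 regions in Pemt-/- and 9 in Pemt+/+. They encode membrane enzymes that act on lipophilic substrates and lipid peroxides. Mgst3 had a pair at the end of its transcript with 22 tags in Pemt-/- and 23 in Pemt+/+ (ratio 0.957), higher than 84.8% of all pairs. On each side, 136 and 241 bp from the Pemt-/- region, Pemt+/+ had a further region of 13 tags with no partner, so the gene as a whole had 22 and 49 tags. Mgst2 had 2 pairs, with 9 and 12 and with 9 and 9 tags, and Pemt+/+ alone had regions of 18 and 9 tags inside it. Mgst1 had 2 regions of 9 tags in Pemt+/+ and none in Pemt-/-. The 3 pairs gave a Pemt-/- share of 47.6% (37.3 to 58.2), an interval that includes 40%.

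The SULT genes had 11 regions in Pemt-/- and 14 in Pemt+/+, and their 9 pairs gave a Pemt-/- share of 38.1% (32.8 to 43.6). Sult4a1, a member known mainly from the brain, had the most tags of those taken by symbol, 45 in 4 Pemt-/- regions and 92 in 5 Pemt+/+ regions. Its upstream pair had 15 and 29 tags (ratio 0.517). Inside the gene, Pemt+/+ alone had a region of 21 tags, chr15:83927872-83928603, the strongest unshared Pemt+/+ region of the conjugation enzyme genes, and 24.8% of Pemt+/+ regions with 21 tags were unshared. At 2316 bp from it stood a Pemt-/- region of 10 tags with no partner.

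Sult5a1 had 43 tags in 3 Pemt-/- regions and 76 in 5 Pemt+/+ regions. One of its pairs, inside the gene, was the only SULT pair with more tags in Pemt-/-, 18 against 16. Sult1c2 had 2 pairs close to each other downstream, with 15 and 35 tags (ratio 0.429) and with 14 and 26. Sult1b1, which sulfates thyroid hormones, had 1 pair with 11 and 18 tags. Sult1a1, the phenol sulfotransferase, was listed in Pemt+/+ only with 12 tags, and Sult3a1 in Pemt-/- only with 11.

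**Figure D4:**
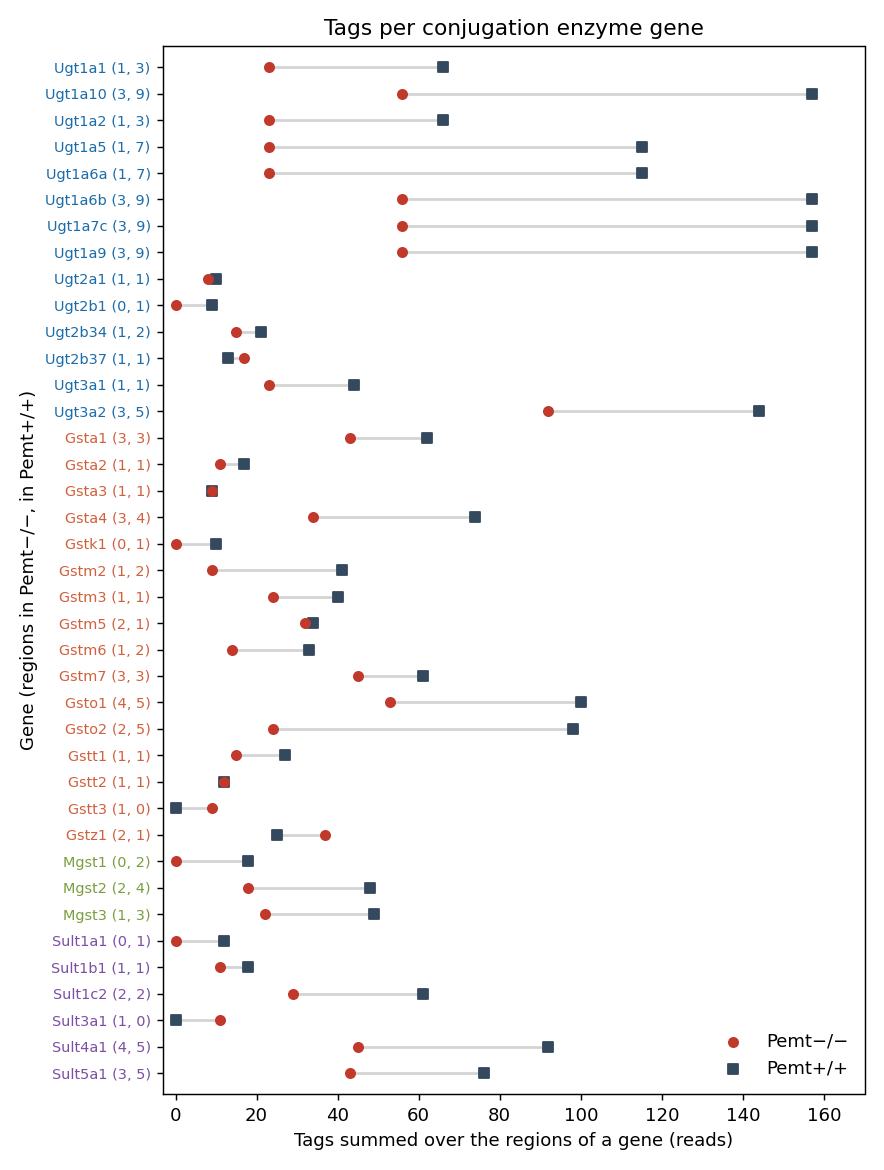
The tags (reads) summed over the regions of each of the 39 genes are shown as circles for Pemt-/- and squares for Pemt+/+, with the number of regions in each mouse in brackets and symbols coloured by family; a gene without a listed region stands at 0. Circles lie left of squares at most genes, with Gstz1, Ugt2b37, Gstt3 and Sult3a1 to the right, and the Ugt1a genes repeat each other because they share regions.

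Summed over regions per gene, the median Pemt-/- share was 32.8% at 31 conjugation enzyme genes with at least 20 tags, against 36.1% at 12608 genes with as many. At the 23 of these genes outside the Ugt1a cluster the median was also 36.1%, and at 59 cytochrome P450 genes it was 38.6%. Among the 31 genes the shares ran from 16.7% at Ugt1a5 and Ugt1a6a to 59.7% at Gstz1. Among the 12608 genes they ran from 6.43% to 82.1%, so no gene listed in 1 mouse only is among these.

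None of the regions at conjugation enzyme genes overlapped the start of a transcript of these genes. The count was 0 of 48 in Pemt-/-, which allows a share of up to 6.25%, and 0 of 69 in Pemt+/+, which allows up to 4.35%, both by the rule of 3 counts over the total. The upper Wilson limits are 7.41% and 5.27%. Over all regions with a transcript 0.522% and 0.567% overlapped a start of any gene, so a count of 0 is within what so few regions can show. At their own starts, cytochrome P450 genes also had 0 of 125 and 0 of 158. Starts were placed in mm9 from the positions and distances in the lists where these allowed it. Within 1 kb of such a start lay 0 of 32 Pemt-/- regions and 3 of 48 Pemt+/+ regions, at 307 bp into Gsto2 with 16 tags, 523 bp into Ugt1a1 with 14 tags and 599 bp into Sult5a1 with 9 tags. All 3 were without a Pemt-/- partner, as were 42.3%, 51.4% and 75.9% of Pemt+/+ regions with those tag numbers. Within 2 kb lay 4 Pemt-/- and 6 Pemt+/+ regions, and within 5 kb 11 and 13. No count over all regions stands beside these near-start counts, and their difference between the mice was not tested. The closest upstream region stood before Sult4a1, 1186 bp from the start in Pemt+/+ (29 tags) and 1315 bp in Pemt-/- (15 tags).

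The share of regions inside the transcripts of these genes was lower than the share of all regions inside any transcript, by more than the counting intervals. These shares are counted differently. At conjugation enzyme and cytochrome P450 genes only their own transcripts counted, so a region inside another gene stood as upstream or downstream. Over all regions any transcript counted, which can raise the share inside. How much of the gap this makes was not tested. Inside or overlapping a transcript were 39.6% (27.0 to 53.7) in Pemt-/- and 47.8% (36.5 to 59.4) in Pemt+/+, against 81.8% and 81.5% of all regions with a transcript, and 51.2% and 50.6% at cytochrome P450 genes. Downstream lay 37.5% and 30.4%, against 8.26% and 8.35%, and upstream 22.9% and 21.7%, against 9.93% and 10.1%. When only genes of up to 50 kb were compared, a limit chosen after seeing the data, the shares inside were 35.6% (23.2 to 50.2) and 41.7% (30.1 to 54.3) at conjugation enzyme genes, 64.6% and 64.8% at all genes, and 44.8% and 44% at cytochrome P450 genes. The order was the same in both mice.

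**Figure D5:**
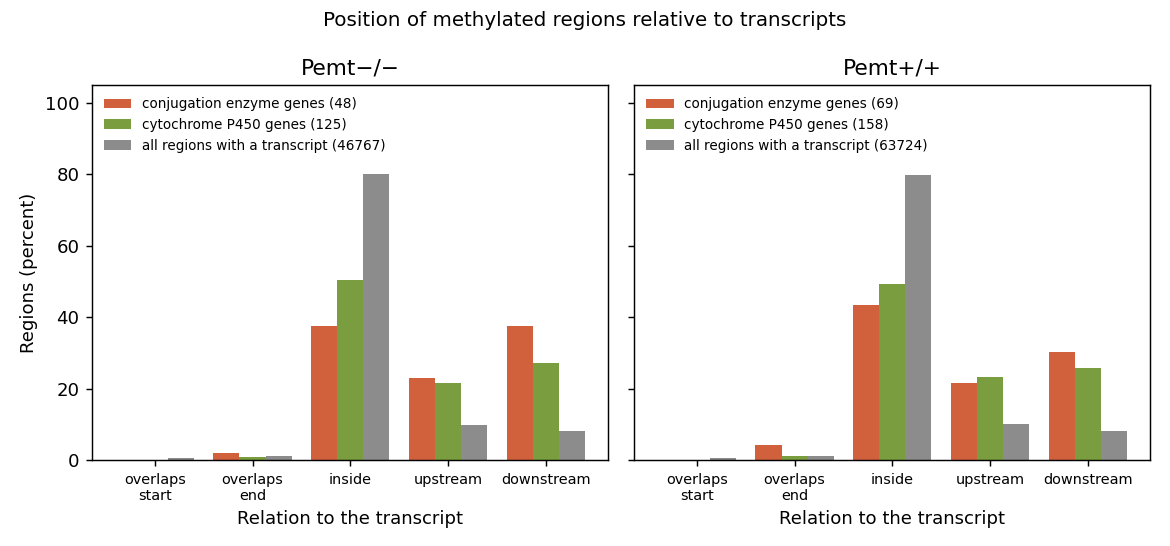
Bars give the percent of regions by their relation to the transcript in Pemt-/- (left) and Pemt+/+ (right), for conjugation enzyme genes, cytochrome P450 genes and all regions with a transcript, with the number of regions in brackets. No bar stands over the start for the first 2 groups, and the inside bar of all regions, at about 80%, is higher than theirs in both mice. The first 2 groups are placed by their own transcripts only, all regions by any transcript.

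A shorter list was deposited for each mouse, and few regions of these genes were in it. It held 2 of the 48 regions in Pemt-/-, against 2.23% of all regions with a transcript, and 1 of the 69 in Pemt+/+, against 4.72%. The Pemt-/- regions were the unshared ones of Gstz1 and Gsta2 described above, with fold enrichments of 9.15 and 7.81 in that list and 29.6 and 22.6 in the longer one. Both carried a false discovery rate of 100%. The Pemt+/+ region was that downstream of Gsto2, with a fold enrichment of 10.2 in the shorter list, 16.9 in the longer one and a false discovery rate of 32.0%. What separates the shorter from the longer lists is not given in the sources used here.

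Many conjugation enzyme genes had no listed region in either mouse. A RefSeq table of GRCm38 has 64 protein-coding genes of these families, and 44 of them (68.8%) had a region under any symbol, against 64.6% of all 21896 protein-coding genes and 73.7% of 99 cytochrome P450 genes. The numbers were 14 of 21 for UGT, 16 of 19 for GST, 3 of 3 for MGST and 11 of 21 for SULT. Among the 20 without a region were Gstm1, Sult2a1, Sult1e1, the estrogen sulfotransferase, and Ugt2b5. The SULT count includes 5 genes that the lists carry under older symbols, so the choice by symbol did not take them. They were Sult6b2 with 191 tags in Pemt-/- and 320 in Pemt+/+, Sult2a4 with 84 and 122, Sult3a2 with 78 and 104, Sult2a6 with 37 and 56, and Sult2a8 with 36 and 75. Pemt+/+ had more tags at all 5. Over 12608 genes with at least 20 tags, all listed in both mice, the Pemt-/- share had an interquartile range of 30.8 to 41.3%.

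Genes that serve conjugation in other ways were examined as a list of 22 that includes the suppliers of the joined groups, the pi class GST genes, methyl, acetyl and amino acid transferases, and Ephx1 and Nqo1. Regions were listed at 17 of them, 49 in Pemt-/- and 58 in Pemt+/+, and 11 (22.4%) and 19 (32.8%) had no partner, against 17.8% and 39.6% of all regions with a transcript. Ugp2, Papss1, Tpmt and Glyat were among those without a region. Their 37 pairs gave a Pemt-/- share of 41.5% (39.0 to 44.1) with a median ratio of 0.667, and 4 of 34 pairs with at least 20 tags were relatively higher in Pemt-/- and 1 in Pemt+/+, against 2.07% and 2.0% of all pairs. With 34 pairs these counts are small and were not tested.

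Among the suppliers, Ugdh, which makes UDP-glucuronic acid, had 83 tags in 6 Pemt-/- regions and 130 in 9 Pemt+/+ regions. Papss2, which makes the sulfate donor, had 73 in 5 and 96 in 4. For glutathione synthesis, Gclc had 63 in 4 and 72 in 3, Gclm 25 in 2 and 40 in 3, and Gss 47 and 71 in 3 each. Gsr, which reduces oxidized glutathione, had 124 in 6 and 241 in 9, and Ggt1, which cleaves glutathione outside the cell, 56 in 4 and 98 in 5. Pemt+/+ had more tags at all 7 of these genes, and the median Pemt-/- share over 12608 genes was 36.1%.

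Methyltransferases that use S-adenosylmethionine, the methyl donor that Pemt also uses, were on that list. As3mt, for arsenic, had 97 tags in 8 Pemt-/- regions and 126 in 6 Pemt+/+ regions, Inmt had 48 and 55 in 2 each, and Nnmt, for nicotinamide, had 9 in 1 each with no overlap between them. The acetyltransferases Nat1 and Nat2 had 27 and 35 tags and 9 and 14 tags. Baat, which joins amino acids to bile acids, had 1 pair with 16 tags in Pemt-/- and 10 in Pemt+/+. It was the 1 gene of the 22 with more tags in Pemt-/-. Nqo1, a quinone reductase, had 23 tags in 1 Pemt-/- region and 81 in 4 Pemt+/+ regions, a Pemt-/- share of 22.1% (15.2 to 31.0). Ephx1, the microsomal epoxide hydrolase, had 33 tags in 2 and 35 in 3.

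The pi class gene Gstp1 had 12 tags in 1 Pemt-/- region and 40 in 2 Pemt+/+ regions. Gstp2 had 1 region of 12 tags over its start in Pemt+/+, the only start overlap in the list of 22, and none in Pemt-/-. Reads of these near-identical neighbours, and of the Gsta, Gstm and Ugt2b copies above, may not be placed with certainty. In the shorter lists stood 1 region each of Papss2, Gclc, Gss and Nnmt in Pemt-/-, and 2 of As3mt and 1 each of Gsr and Nqo1 in Pemt+/+. These are 4 of the 49 and 4 of the 58 regions, against 2.23% and 4.72% of all regions with a transcript.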

How the data were processed

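Liver DNA of Pemt-/- and Pemt+/+ mice was enriched for methylated fragments with the EpiXplore kit. It was made into 1 library per genotype with the TruSeq ChIP kit and sequenced on a Genome Analyzer IIx. The sample records, unlike the study's methods, mention bisulphite conversion before enrichment. The submitters' processing notes name CASAVA version 1.8.2, Bowtie and the build mm9. The lists have the columns of the peak caller MACS, whose settings and control, like the library totals, are not given in the sources used here. They were called per mouse.

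Tags deposited by the authors are read counts per region. The deposited fold enrichment is a ratio over background, the deposited score is 10 times the −log10 p-value, with 50 as the lowest (p of 1e-05), and the deposited false discovery rate is a percent. Duplicate reads and the control affect all of them.

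Overlaps used bedtools version 2.31.1 (at least 1 bp), and the rest used Python version 3.11.15, pandas version 2.3.3, numpy version 2.4.6, scipy version 1.17.1 and matplotlib version 3.10.9. The overlap and ratio code was tested on simulated data. Wilson 95% intervals treat reads as independent molecules. Transcript positions came from the distances in the lists. Conjugation enzyme and cytochrome P450 regions were placed by the transcripts of those genes only, and all regions by any transcript. A region with several such relations was placed by the first of start, end, inside, upstream and downstream.

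The members, the list of 22 further genes and the comparisons were chosen with earlier results of these data known. Named were the 3 genes per family with the most tags (ties included), genes in a shorter list or with a start overlap, the 5 highest and 5 lowest ratios among pairs of at least 40 tags, the 3 strongest unshared regions per mouse, and the 22 genes. Other members are named to account for all of them or because of a count given, chosen after their values were seen.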

Additional observations from a re-analysis of the deposited data

How the results depend on the processing

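No paired analysis was possible because a genotype is represented by 1 library. Of 34 values recomputed under other settings, 27 moved by less than the limits set and 7 moved by more. The limits were wide for counts. Among the 27 are falls of the Pemt+/+ regions from 69 to 49 with lists of equal size and to 54 with regions of a single gene. With the upper 50% of each list by score, the regions at conjugation enzyme genes numbered 26 in Pemt-/- and 32 in Pemt+/+, and with regions inside or overlapping a transcript 19 and 33, both fewer by construction. The latter also raised the Pemt-/- share of paired tags from 39.8% to 42.5%. With lists of equal size, 60.4% of Pemt-/- regions had a partner, against 79.2%, since fewer Pemt+/+ regions were left. With a false discovery rate of at most 50%, 0 of the 2 Pemt-/- regions of the shorter lists were left, and the 1 Pemt+/+ region stayed. Under the other settings the Pemt-/- share of paired tags was 38.6 to 39.8%. They included 3 chosen after seeing the data: Pemt+/+ regions with at least 8 tags after scaling by 0.682 (52 regions, 65.4% with a partner), all overlapping groups of regions (39.5%), and leaving out the Ugt1a cluster (39.6%). Of the unshared loci, 8 of the 10 in Pemt-/- and 14 of the 29 in Pemt+/+ held at most 12 tags, near the smallest numbers listed, and the part of depth in this was not tested. Absence from a list is not absence of methylation.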
